A study of Mus musculus with 4 samples.

Results

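The antigen receptor block is a set of 230 windows around transcription start sites, out of 51121 windows in all (0.45%). Its members are the windows whose mouse Ensembl identifier lies from ENSMUSG00000076461 to ENSMUSG00000076940, a range given mostly to gene segments of T cell receptors and immunoglobulins. The range stands in for the gene class. The sources used here pair no identifier with a gene name, so which segment a member belongs to, and which members are not segments, is not known. Each window was read in 2 libraries from regulatory T cells (Tregs) sorted from the spleen of C57BL/6 mice, 1 library per genotype. Tregs are T cells that hold other immune cells in check. Both genotypes carry Foxp3-cre, a recombinase driven from the locus of Foxp3, the transcription factor that defines Tregs. The KAP1-sufficient library comes from cells with the intact Kap1 allele (KAP1+/+), and the KAP1-deficient library from cells with the floxed allele (KAP1f/f). The assay was ChIP-seq for H3K9me3, a histone mark of silent chromatin, and KAP1 (TRIM28) is a co-repressor that recruits the methylation of H3K9. Column headings name the genotype without the antibody. That the columns are H3K9me3 was taken from the design text, and no input library was analysed here. The sources used here give neither ages nor the number of animals pooled.

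Antigen receptor genes are built by V(D)J recombination. In developing lymphocytes the RAG recombinase joins 1 variable (V), in some loci 1 diversity (D), and 1 joining (J) segment, which are then spliced to a constant (C) region. Joining usually deletes the DNA between the segments, and sometimes inverts it. T cells rearrange their T cell receptor loci, while complete immunoglobulin genes are assembled in B cells. In mouse the T cell receptor alpha and delta segments lie on chromosome 14, beta on chromosome 6 and gamma on chromosome 13, and the immunoglobulin heavy chain lies on chromosome 12, kappa on chromosome 6 and lambda on chromosome 16. The RefSeq gene table (GRCm38.p6, the assembly also called mm10) lists 686 such segments and regions, of which none could be matched to a member. It shows how unlike their layouts are. The 62 J segments of chromosome 14 start a median of 978 bp apart and the 19 of chromosome 6 a median of 290 bp apart. The 145 V segments of chromosome 14 have a median spacing of 10520 bp and the 197 of chromosome 6 of 15079 bp. The sources used here do not state the width of the counted windows, so close neighbours may share reads.

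Fewer reads per window fell in the antigen receptor block than in windows with low Ensembl numbers, in both libraries. The comparison set was the 17863 windows with Ensembl numbers from 1 to 63999, which are mostly protein-coding genes. In the KAP1-sufficient library the block held 1625 reads (95% Poisson interval 1547 to 1706), a mean of 7.07 per window (SD over windows 5.75) and a median of 6.5. The comparison set had a mean of 11.99 (SD 5.61) and a median of 12 in that library. In the KAP1-deficient library the block held 856 reads (interval 800 to 915), with a mean of 3.72 (SD 3.42) and a median of 3, against a mean of 5.39 (SD 3.60) and a median of 5. The libraries held 480326 and 228009 reads over all windows, so the former was 2.11 times deeper. Summed over both libraries, a block window had 62.1% of the reads of a comparison window (59.7 to 64.6). Against all windows outside the block it had 77.8% (74.7 to 80.9). The block's means were also lower than those of adjoining sets of the same identifier width. The 164 windows below the block had means of 9.62 KAP1-sufficient and 4.70 KAP1-deficient reads, and the 250 windows above it 9.91 and 4.74. All these intervals cover counting error only and treat reads as independent.

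**Figure D1:**
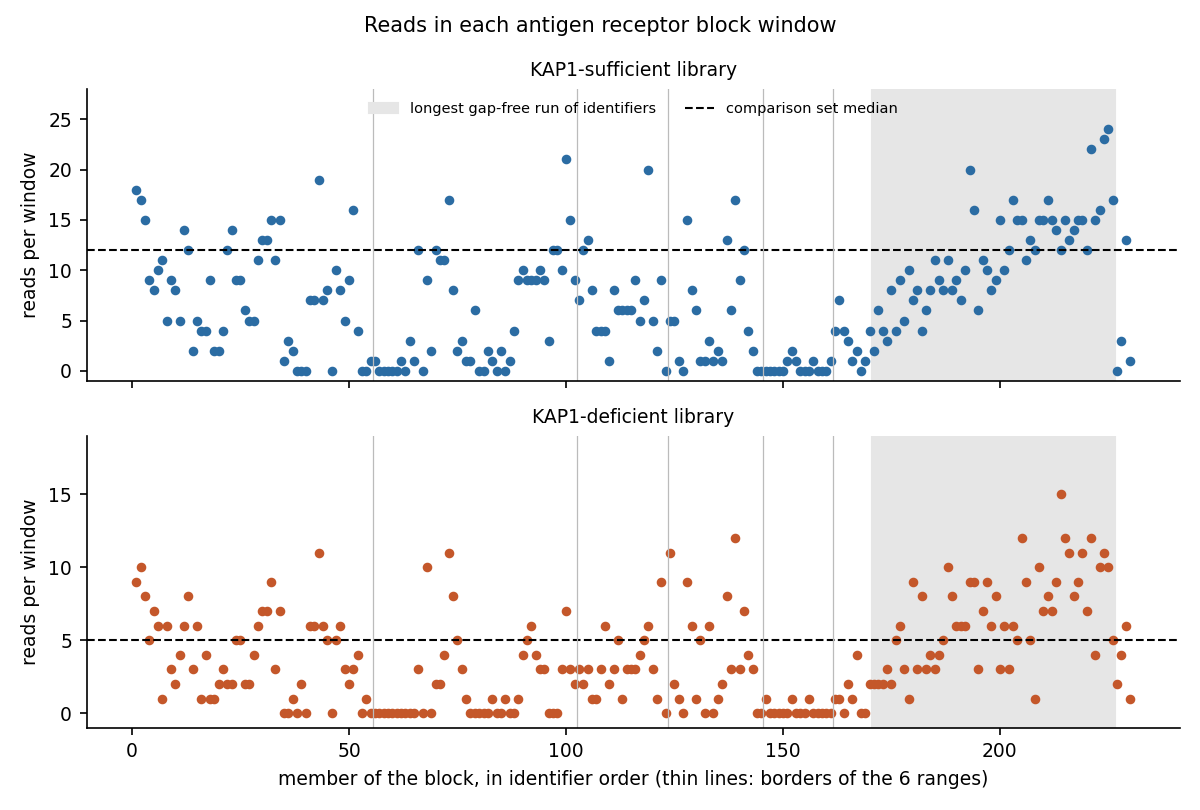
Reads per window (vertical axis) of the 230 members in identifier order (horizontal axis), in the KAP1-sufficient library (top) and the KAP1-deficient library (bottom). The dashed line is the comparison set's median, 12 and 5 reads, and grey marks the longest run of identifiers without a gap (56 members), along which reads go from near the floor to the highest values of the block.

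Empty windows were more frequent in the block than in the comparison set and in the adjoining sets of the same width. Their share was close to that of the table as a whole. No read from either library fell in 28 of the 230 members, a share of 12.2% (exact 95% binomial interval 8.24 to 17.1). The same share was 2.34% (2.12 to 2.57) in the comparison set and 12.0% (11.7 to 12.3) over all other windows. It was 3.66% (1.35 to 7.79) in the set of the same identifier width below the block and 2.80% (1.13 to 5.68) above it. A further 18 members had 1 read in all, so that 46 members (20%) had at most 1 read, against 3.02% of the comparison set. The KAP1-deficient library had no read in 53 members (23.0%) and the KAP1-sufficient library none in 34 (14.8%). Thinning the KAP1-sufficient reads to the depth of the KAP1-deficient library would leave 52.7 empty members on average (22.9%). The 53 observed are close to that number. In the comparison set the KAP1-deficient library had 5.41% empty windows against 4.20% after the same thinning. Zero reads is compatible with a level of up to 3 reads in a library (the one-sided 95% Poisson limit), and whether reads could be mapped to these windows was not tested.

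**Figure D2:**
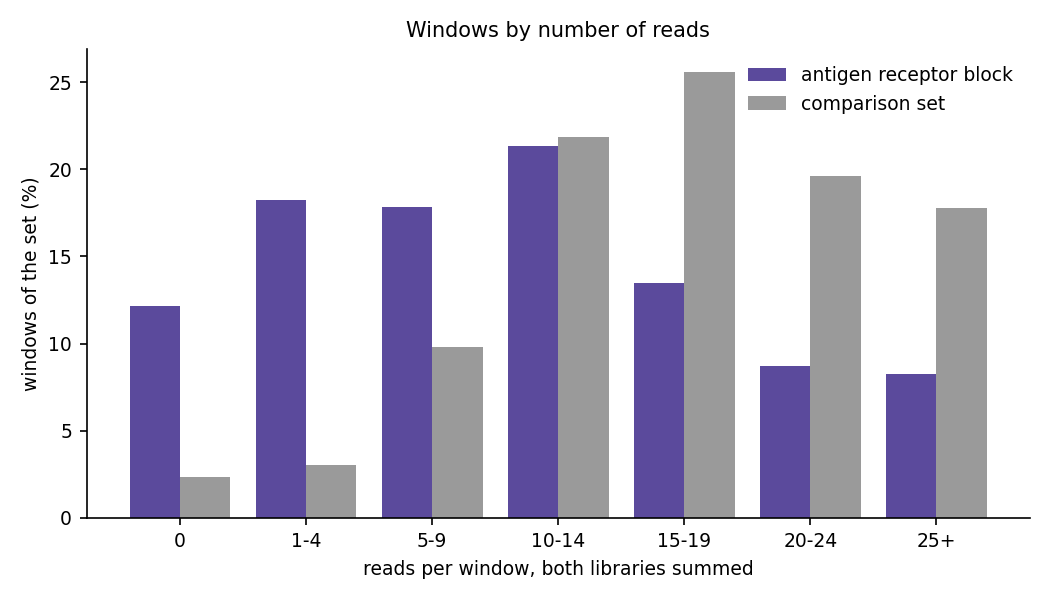
Share of windows (vertical axis, %) by reads summed over both libraries (horizontal axis), for the block (purple) and the comparison set (grey). In the block 12.2% of windows were empty and 18.3% had 1 to 4 reads, while 17.8% of comparison windows and 8.26% of block windows had 25 or more.

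Reads varied more between members than between comparison windows, and low and high windows lay in stretches along the identifiers. Variance over windows was 4.68 times the mean in the KAP1-sufficient library and 3.15 times in the KAP1-deficient library. In the comparison set it was 2.63 and 2.41 times. With the Poisson variance subtracted, the coefficient of variation over members was 72.1% and 76.0%, against 36.8% and 51.1%. All other windows together varied about as much as the block, with variances of 4.74 and 3.71 times the mean and coefficients of 63.0% and 77.9%. In the sets of the same identifier width, the variances were 2.955 and 2.08 times the mean below the block and 2.30 and 2.79 times above it. Across the 230 members, which share libraries and are not replicates, reads in one library went with reads in the other at Pearson r 0.74 and Spearman rho 0.76. The comparison set gave 0.53 and 0.52. In the block, members with consecutive identifiers were alike. Over 154 such pairs r was 0.62 for KAP1-sufficient and 0.47 for KAP1-deficient reads. Over 7111 pairs of the comparison set it was 0.07 and 0.05. Between a member in one library and its neighbour in the other, r was 0.48 in the block and 0.06 in the comparison set. The part of shared reads in these values was not tested, and no such values were taken for windows outside the block and the comparison set. Of the 154 pairs, 4 had equal counts in each library with at least 1 read, and 2 of these had reads in both libraries.

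Split into 6 ranges of 80 identifiers each, the block had its lowest reads in the fifth range and its highest in the sixth. The fifth range, from ENSMUSG00000076781 to ENSMUSG00000076860, had 16 members with 6 KAP1-sufficient and 3 KAP1-deficient reads in all. Of these 16 windows 9 were empty, 15 had at most 1 read, and no window exceeded 2 KAP1-sufficient reads or 1 KAP1-deficient read. The sixth range had 69 members with a mean of 9.99 KAP1-sufficient reads (SD 5.71) and 5.68 KAP1-deficient reads (SD 3.59), and 1 empty window. The first range came next, with means of 7.60 and 3.96 over 55 members and 4 empty windows. The second range, with 47 members, held 10 empty windows, 5 of them in a row in identifier order from ENSMUSG00000076543 to ENSMUSG00000076549. Its means were 5.49 and 1.96. The third range and the fourth, of 21 and 22 members, had KAP1-sufficient means of 6.76 and 5.09 and KAP1-deficient means of 3.19 and 3.82.

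Reads formed a gradient along the longest run of identifiers without a gap, from ENSMUSG00000076873 to ENSMUSG00000076928. The gradient was noticed in the values and then described. All 56 members of the run had reads in both libraries. In the KAP1-sufficient library the first 14 members held a mean of 6.00 reads (Poisson interval 4.79 to 7.43), with a lowest, median and highest value of 2, 6 and 10. The next 14 held a mean of 10.3 (8.67 to 12.1), the third set of 14 a mean of 13.6 (11.8 to 15.7), and the last 14 a mean of 16.2 (14.2 to 18.5), with a lowest, median and highest value of 12, 15 and 24. The first and last sets did not overlap in that library. In the KAP1-deficient library the means were 3.79 (2.84 to 4.95), 6.50 (5.23 to 7.98), 6.43 (5.17 to 7.90) and 9.57 (8.02 to 11.3). There the first set ranged from 1 to 9 reads and the last from 4 to 15, so single members overlapped while the intervals of the means did not.

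**Figure D3:**
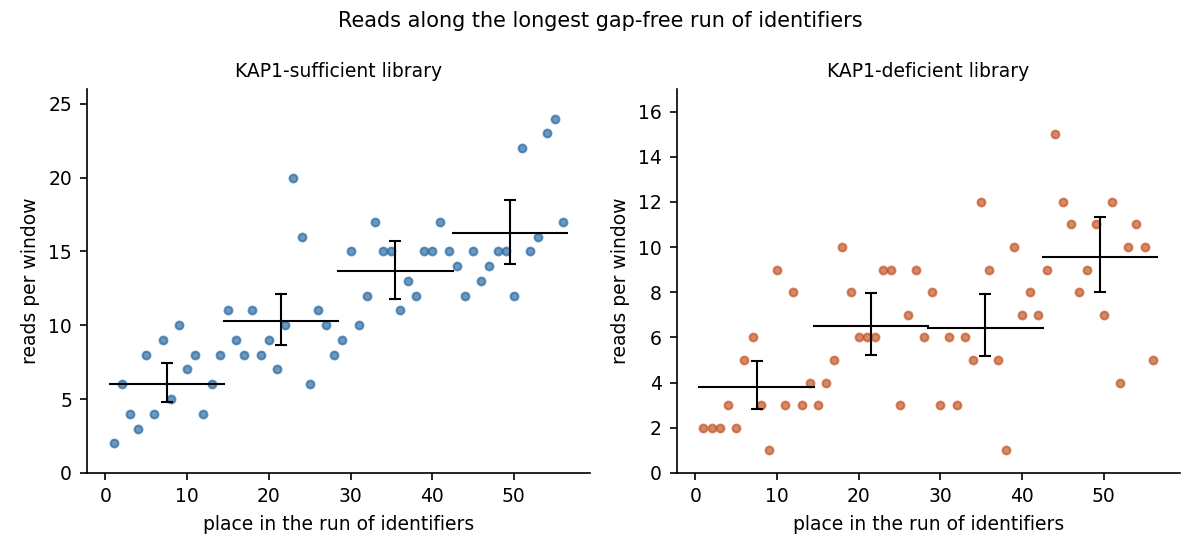
Reads per window (vertical axis) against place in the 56-member run of identifiers (horizontal axis) in the KAP1-sufficient (left) and KAP1-deficient (right) library. Points are members, and black bars are means of 14 members with 95% Poisson intervals, from 6.00 to 16.2 reads on the left and from 3.79 to 9.57 on the right.

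The last 28 members of the run held 1.83 times the reads of the first 28 in the KAP1-sufficient library (418 against 228, exact interval 1.56 to 2.16). In the KAP1-deficient library they held 1.56 times as many (224 against 144, interval 1.26 to 1.93). The place in the run had a Spearman rho of 0.83 with KAP1-sufficient reads and 0.60 with KAP1-deficient reads (Pearson r 0.81 and 0.59, 56 members that share libraries and may share reads with neighbours). Elsewhere in the table, 152 runs of at least 30 identifiers without a gap gave rho from -0.43 to 0.42 for KAP1-sufficient reads. For KAP1-deficient reads they gave rho from -0.37 to 0.44. None of the 152 runs had a rho as large as the 56-member run in either library. The gradient had already been noticed in the values, so this ranking only describes the run. All 152 begin at ENSMUSG00000065420 or later, so none lies in the comparison set, and they differ in length, with up to 1187 windows. Taking only every second member, so that no next neighbours remained, rho was 0.80 and 0.85 in the KAP1-sufficient library. In the KAP1-deficient library it was 0.82 over the odd places and 0.35 over the even places, so the gradient there was uneven. As the window width is not known, the members kept may still share reads. Whether identifier order follows order along the chromosome, in the 56-member run or in the 152 others, was not tested, as positions were not used here.

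The highest members of the block were at the end of this run. ENSMUSG00000076927 held 24 KAP1-sufficient and 10 KAP1-deficient reads. ENSMUSG00000076926 held 23 and 11, and ENSMUSG00000076923 held 22 and 12. Each had 34 reads in all, and none of these members exceeded the highest window of the comparison set, at 36 KAP1-sufficient and 28 KAP1-deficient reads in separate maxima. ENSMUSG00000076523, in the first range, followed with 19 and 11 reads. ENSMUSG00000076895, inside the run, held 20 and 9, and ENSMUSG00000076759, in the fourth range, 17 and 12. At the borders of the block, the first members ENSMUSG00000076461 and ENSMUSG00000076462 held 18 and 9 and 17 and 10 reads, and the windows just before them, ENSMUSG00000076459 and ENSMUSG00000076460, held 8 and 6 and 12 and 8. The last members ENSMUSG00000076939 and ENSMUSG00000076940 held 13 and 6 and 1 and 1, and the windows after them, ENSMUSG00000076941 and ENSMUSG00000076944, held 8 and 0 and 9 and 6.

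Relative to library totals, the block held slightly more KAP1-deficient reads than the comparison set, but not beyond counting error once the 56-member run was left out. After scaling each library to its total over all windows, KAP1-deficient over KAP1-sufficient reads, pooled over the block, gave a ratio of 1.11 (exact 95% interval 1.02 to 1.21). It was 0.95 (0.94 to 0.95) in the comparison set, and the ratio of these ratios was 1.17 (1.08 to 1.27). Without the 56-member run, which held 1014 of the 2481 reads, it was 1.11 (0.99 to 1.24), an interval that includes 1. The block's own ratio also took in 1 without the run (1.05, 0.94 to 1.17), over members averaging 5 reads or more (1.09, 0.99 to 1.19) and without 50 identifiers at each end (1.08, 0.95 to 1.22). The KAP1-deficient share exceeded that of the whole library in 116 of the 202 members with reads (57.4%). It did so in 42.5% of comparison windows with reads and in 46.8% of all windows with reads. For sets of the same identifier width, it did so in 51.3% of windows with reads below the block and 42.8% above it. In pooled ratio, both of these sets lay closer to the block than the comparison set did. The 164 windows below had a ratio of 1.03 (0.94 to 1.12) and the 250 windows above 1.01 (0.94 to 1.08). Set against these, the block's ratio was 1.08 times (0.96 to 1.22) and 1.10 times (0.99 to 1.23) as high, so a difference from its neighbours was not detectable at this depth. With 1 library per genotype, genotype and library cannot be told apart in any of these ratios, and scaling to totals removes a difference in overall H3K9me3. The intervals of these ratios, and of those by class and range below, treat reads as independent. They would be too narrow where neighbouring windows share reads.

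In the comparison set, windows with few reads tended to have a low KAP1-deficient share, with the lowest ratio at 5 to 9 reads. The block has many windows with few reads, so the ratio was also taken within classes of reads. In windows of 5 to 9 reads over both libraries it was 1.34 (1.05 to 1.69) over 41 members, against 0.80 (0.76 to 0.83) in the comparison set. In windows of 10 to 14 reads it was 0.88 (0.73 to 1.05) over 49 members against 0.86 (0.84 to 0.88). In windows of 15 to 19 reads the values were 1.17 (0.97 to 1.40) over 31 members and 0.89 (0.88 to 0.91). In windows of 20 to 24 reads they were 1.16 (0.95 to 1.41) over 20 members and 0.94 (0.92 to 0.95). From 25 reads up, the 19 members had 1.21 (1.01 to 1.45) and the comparison set 1.07 (1.06 to 1.09). In windows of 1 to 4 reads the 42 members had 0.94 (0.57 to 1.52) and the comparison set 0.85 (0.75 to 0.95). The block was above the comparison set in each of the 6 classes, and the interval of the ratio of ratios excluded 1 in the classes of 5 to 9 (1.68, 1.31 to 2.14), 15 to 19 (1.31, 1.09 to 1.57) and 20 to 24 reads (1.24, 1.01 to 1.51).

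**Figure D4:**
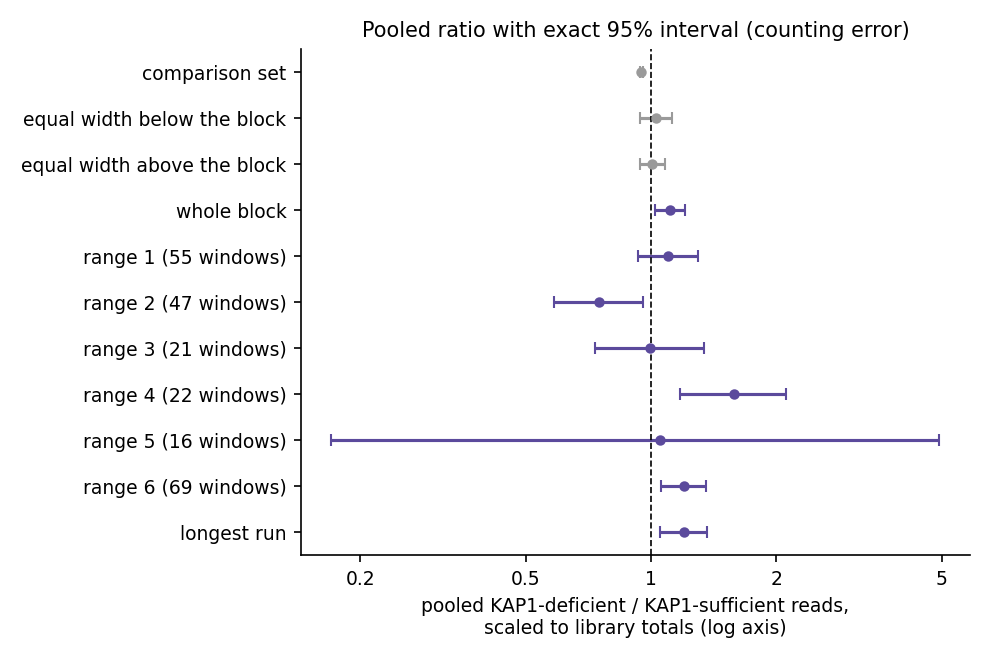
Ratio of pooled KAP1-deficient over KAP1-sufficient reads, scaled to library totals (horizontal log axis) with exact 95% intervals, for reference sets (grey) and for the block, its 6 ranges and its longest run (purple). The second range lies at 0.75 and the fourth at 1.58, on either side of the whole block at 1.11.

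Pooled ratios of the ranges lay on both sides of 1. The second range had a ratio of 0.75 (0.59 to 0.96) from 258 KAP1-sufficient and 92 KAP1-deficient reads. It includes the consecutive members ENSMUSG00000076614 and ENSMUSG00000076615, each with 12 and 0 reads. Whether these members share reads was not tested, and the ratio without them was not taken. The fourth range had 1.58 (1.18 to 2.12) from 112 and 84 reads, and the sixth 1.20 (1.06 to 1.36) from 689 and 392. The first range, at 1.10 (0.93 to 1.30), the third, at 0.99 (0.73 to 1.34), and the fifth, at 1.05 (0.17 to 4.93), had intervals that include 1. Of the 4 narrower ranges of 20 identifiers within the second range, 3 had ratios below 1. The first and the third held few reads, with ratios of 0.35 (0.07 to 1.20) from 18 and 3 reads and 0.42 (0.04 to 1.98) from 10 and 2. The last held most of the reads. Its 14 members from ENSMUSG00000076604 to ENSMUSG00000076620 held 147 KAP1-sufficient and 41 KAP1-deficient reads, a ratio of 0.59 (0.41 to 0.84), with 3 to 21 reads per window in the former and 0 to 7 in the latter. The 4 members that follow, from ENSMUSG00000076621 to ENSMUSG00000076633, held 40 and 9 reads (ratio 0.47, 0.20 to 0.99). All of these came from 24 such narrow ranges, chosen after seeing the data, of which 2 had intervals below 1 and 2 above 1. No interval was adjusted for the number of ranges. The 56-member run had a ratio of 1.20 (1.05 to 1.37), against 1.05 in the remaining 174 members. The run was 1.14 times (0.96 to 1.36) as high as the remaining members, an interval that includes 1.

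Few single members could be called different between the libraries at this depth. A window was called where the scaled ratio, with 2 reads added, was at least 2-fold lower or higher and the exact 95% interval of its KAP1-deficient share excluded that of the library. Of the 230 members, 119 had the mean over the libraries of at least 5 reads that a call needs, and 5 were called (4.20%), against 4.3% of the 35540 windows tested in the whole table. The block's share of calls was thus at the background. The 2 lower members, against a background of 1.81%, were ENSMUSG00000076614 and ENSMUSG00000076615. Each held 12 KAP1-sufficient reads (Poisson interval 6.20 to 21.0) and 0 KAP1-deficient reads, so each ratio had an upper limit of 0.76. Their identifiers are consecutive and their counts equal, and whether they share reads was not tested. Both lie in the last narrow range of the second range. The 3 higher members, against a background of 2.49%, were ENSMUSG00000076709 with 5 and 11 reads, ENSMUSG00000076884 with 4 and 8, and ENSMUSG00000076916 with 12 and 15. Their ratios were 4.63 (1.48 to 17.0), 4.21 (1.13 to 19.1) and 2.63 (1.15 to 6.16), in that order. The KAP1-deficient counts exceeded the KAP1-sufficient ones in all of them although that library was shallower, and each interval is wide because each rests on 12 to 27 reads. ENSMUSG00000076884 and ENSMUSG00000076916 belong to the 56-member run. Over the 119 members tested the median log2 ratio was 0.16, against -0.10 over the comparison windows tested and -0.05 over all windows tested. It was 0.06 and -0.07 in the sets of the same identifier width below and above the block.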

How the data were processed

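The deposited table gives, per the file headers, raw read counts for windows around start sites, in 2 columns of whole numbers, and no column was left unused (0). The submitters' processing notes name Bowtie2 2.2.9, Picard 2.1.1, bedtools 2.26.0 and mm10. The sources used here do not give their roles, the window width, the annotation or any read filters. Mapping filters can lower counts where segments resemble each other in sequence.

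The members, lists and ranges were chosen with earlier results of these data known. Columns were read as H3K9me3 libraries because the design text describes sequencing of precipitated chromatin. Ratios were scaled to total reads over all windows, with Clopper-Pearson intervals of the KAP1-deficient share, and ratios of ratios are conditional exact odds ratios. All intervals of reads, means and ratios cover counting error only and treat reads as independent. With 1 library per genotype no test between genotypes was possible. Calls were made over the whole table. Named windows are the 5 with the most reads (6 with ties), all called members, and those at the borders. Planned segment classes, V(D)J recombination genes and marker checks were not run, because 0 identifiers matched a name. Software was Python 3.11.15 with pandas 2.3.3, scipy 1.17.1 and numpy 2.4.6.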

Additional observations from a re-analysis of the deposited data

How the results depend on the processing

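Of 64 alternatives, 43 stayed within the interval, or within 1.5 times the count, of the value given. Reads per window, 62.1% of the comparison set, were 77.8% against all windows outside the block, 69.0% over windows with reads and 48.5% without the 56-member run. The excess of empty windows over the comparison set, 9.83 percentage points, was 0.15 against all other windows, 12.2 for windows empty in the KAP1-sufficient library alone, 18.7 for that library thinned to the other's depth, and 16.98 for windows of at most 1 read. The block's ratio of 1.11 was 0.94, 1.34, 0.88 and 1.21 in the classes of 1 to 4, 5 to 9, 10 to 14 and 25 or more reads. The 5 calls were 0 (0 lower, 0 higher) with 10 reads added, against 0.63% of all windows. They were 1 (0 lower, 1 higher) of 39 tested with a mean of at least 10 reads (2.56%), against 5.92% of all windows tested. With a 99% interval they were 1 (0 lower, 1 higher) of 119 (0.84%), against 0.95%. With scaling to the comparison set, 2 of the 6 ranges in place of 3 had intervals that exclude 1, as the second took in 1 (0.79, 0.62 to 1.01). The run's increase in the KAP1-deficient library, 1.56 times, was 2.05 over odd and 1.18 (0.87 to 1.61) over even places; the cause was not tested. The alternatives on the run, the KAP1-sufficient library alone, the narrow ranges and scaling within ranges were chosen after seeing the data. No paired analysis was possible because the table holds only 1 library per genotype. A median of 6.5 and 3 reads per member limits single-window statements.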
